A study of Homo sapiens with 32 samples.

Results

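The clade A serpin genes SERPINA1, SERPINA4 and SERPINA6 and the albumin gene ALB were followed in estrogen-dependent breast tumor xenografts during tamoxifen treatment. Every probe that the study's list of changed probes pairs with any of these 4 symbols was taken, which gave 5 cDNA probes among 9912 on the array and among 333 with a symbol. SERPINA1 (206299_A), SERPINA4 (240300_A) and ALB (230118_A) had 1 probe each, and SERPINA6 had a pair (205058_A, called probe 1 here, and 240518_A, called probe 2), so 4 genes stand behind the 5 probes. Probes entered that list as changed on these same arrays, and it places all 5 in its set 5, a cluster of time courses. The direction of the 5 probes, and their movement together from day to day, are therefore not independent evidence.

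The tumors were xenografts of ZR-75-1, an established human line of estrogen receptor-positive breast cancer, carried from mouse to mouse as fragments and grown under the skin of female nu/nu mice, which lack T cells but keep other leukocytes and supply the stroma and vessels. All mice carried a pellet that released estradiol (E2). The 16 treated tumors came from 12 mice that also carried a pellet releasing 2.5 mg of tamoxifen over 60 days, and were taken at day 1 (4 tumors, 2 mice), day 2 (2 tumors, 2 mice), day 4 (4 tumors, 3 mice), day 7 (4 tumors, 3 mice) and day 14 (2 tumors, 2 mice). RNA of each tumor was set against 1 pool of RNA from xenografts of mice given E2 only (days 0, 1, 2 and 4) on 2-color cDNA arrays, in a forward and a dye-swap hybridization. The measure is the log2 ratio of tumor over control pool, averaged over both orientations of a tumor, so that values below 0 mean less of the RNA in the treated tumor than in the pool. The control is a single pool, so the spread between control tumors is not part of any test below, and n counts tumors, of which 4 pairs share a mouse. Ages were not given in the sources used here. Which dye each scanned channel holds is not stated in the sources used here. The direction used is the likely one, as it is that of the study's own ratios. Ratios turned this way correlated positively with the deposited value table on 31 of 31 arrays (median r 0.866), least on the forward array of replicate 4 of day 7 (r = 0.217). If the file channels follow the channel numbers of the labels, every ratio below changes sign, while no correlation between the ratios of probes changes. The values given below for the tumor channel and the pool channel would then change places.

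Serpins are a family of proteins, most of which trap a serine protease in an irreversible complex. Clade A holds secreted members, among them those made mainly by the liver for the blood plasma. SERPINA1 (alpha-1-antitrypsin) inhibits neutrophil elastase, SERPINA4 (kallistatin) inhibits tissue kallikrein, and SERPINA6 (corticosteroid-binding globulin) has lost inhibition and carries cortisol and progesterone. ALB, the main plasma protein, is not a serpin but shares their liver-centered expression. Some breast cancer cells also make such proteins, and SERPINA1 is known as an estrogen-responsive gene in several breast cancer lines. The 3 serpin genes lie in 1 cluster on chromosome 14, and ALB lies on chromosome 4.

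The promoter windows of the 4 genes are shown because the study groups them in 1 cluster and because all of them hold the same short word. Each window runs from 250 bases before to 50 bases after a RefSeq gene start (GRCh38.p14), and is printed 5' to 3' on the gene's own strand. The windows are chr14:94388553-94388852 (minus strand, the downstream of 2 SERPINA1 starts), chr14:94561192-94561491 (plus strand, SERPINA4), chr14:94323287-94323586 (minus strand, SERPINA6) and chr4:73404037-73404336 (plus strand, ALB). Capitals mark GTTAAT or its reverse complement ATTAAC, the core letters bound by the liver factor HNF1.
SERPINA1: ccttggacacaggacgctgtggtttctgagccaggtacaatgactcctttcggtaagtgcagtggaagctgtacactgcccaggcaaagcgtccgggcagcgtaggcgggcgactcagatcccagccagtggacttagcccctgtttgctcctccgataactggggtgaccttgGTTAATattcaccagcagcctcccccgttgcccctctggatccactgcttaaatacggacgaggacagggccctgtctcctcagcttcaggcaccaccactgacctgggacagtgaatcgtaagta
SERPINA4: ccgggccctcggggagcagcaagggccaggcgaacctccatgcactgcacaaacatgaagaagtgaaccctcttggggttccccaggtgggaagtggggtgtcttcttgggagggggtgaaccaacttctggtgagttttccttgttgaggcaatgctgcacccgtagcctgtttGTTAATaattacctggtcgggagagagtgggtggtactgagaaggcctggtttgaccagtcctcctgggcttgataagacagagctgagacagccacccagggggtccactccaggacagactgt
SERPINA6: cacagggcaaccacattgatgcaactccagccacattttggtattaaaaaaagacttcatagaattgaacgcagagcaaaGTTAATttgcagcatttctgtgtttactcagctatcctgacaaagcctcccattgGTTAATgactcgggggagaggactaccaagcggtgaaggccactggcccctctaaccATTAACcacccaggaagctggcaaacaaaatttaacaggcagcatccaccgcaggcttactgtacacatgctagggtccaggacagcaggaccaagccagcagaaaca
ALB: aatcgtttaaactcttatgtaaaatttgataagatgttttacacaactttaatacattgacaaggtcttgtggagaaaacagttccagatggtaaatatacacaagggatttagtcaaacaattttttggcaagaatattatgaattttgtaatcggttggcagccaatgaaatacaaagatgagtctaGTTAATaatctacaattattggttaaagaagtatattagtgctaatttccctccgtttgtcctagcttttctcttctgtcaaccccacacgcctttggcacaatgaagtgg

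The HNF1 word occurred once in the SERPINA1, SERPINA4 and ALB windows, with its first base at -76, -75 and -61 from the start, and 3 times in the SERPINA6 window (-170, -115 and -58). It was absent from the window of the upstream SERPINA1 start. Of all 35116 RefSeq promoter windows of 300 bases, 6.88% held it on either strand. The full palindromic estrogen response element, was found in none of the 5 windows (0.057% of all windows). The single site GGTCA or TGACC was found in both SERPINA1 windows and the SERPINA4 window (37.4% of all windows), and the FOXA word TGTTTAC or GTAAACA was found in the SERPINA6 window (3.42%). TTGCGCAA, bound by C/EBP (0.151%), and CAAAGTCCA or TGGACTTTG, bound by HNF4 (0.384%), were found in none of the 5. None of the words found overlapped another. The words were chosen after the windows had been read, and a match describes letters only.

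**Figure D1:**
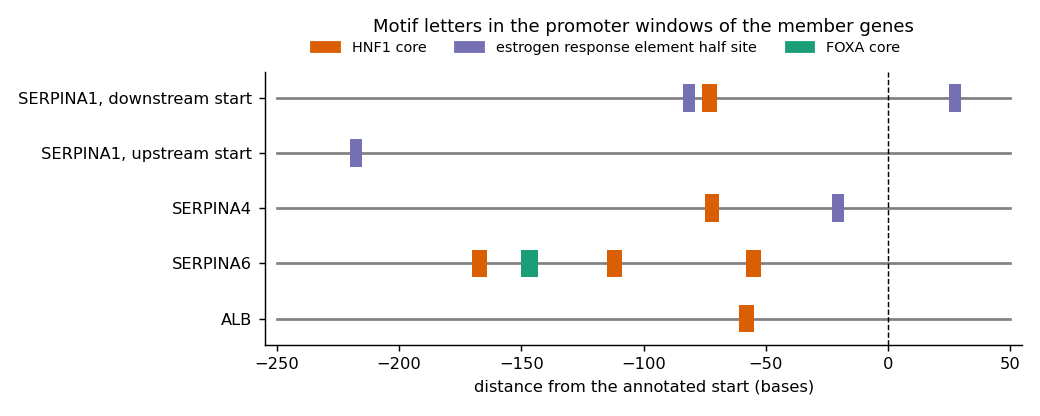
Positions of the motif words in the 5 promoter windows. The x axis gives the distance from the annotated gene start in bases, each grey line is 1 window, and boxes mark the HNF1 word, the single site of the estrogen response element and the FOXA word. Each gene has an HNF1 word, at -61 in ALB and at -76 in the downstream window of SERPINA1.

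All 5 probes lay below the control pool in all 16 tumors, which 1.7% of the 9865 probes with a value in every tumor did. In the deposited value table, the column of the forward array of replicate 4 of day 7 runs the other way, at 0.55 for SERPINA1, 1.27 for SERPINA4, 0.50 and 0.27 for the SERPINA6 probes and 2.63 for ALB, where the scanned intensities give -1.09, -0.14, -1.72, -1.82 and -1.91. By that table SERPINA4 (0.30) and ALB (0.60) were above the pool in this tumor, so each was below it in 15 of 16, while the other 3 probes were below it in 16 of 16. With the dye-swap array alone for this tumor, an alternative chosen after seeing the data, the calls described next numbered 3, 0, 3, 4 and 5. By limma with Benjamini-Hochberg adjustment over all probes, the number of the 5 called lower (adjusted p under 0.05) was 3, 1, 3, 4 and 5 at days 1, 2, 4, 7 and 14. The share of all 9912 probes called lower was 3.54%, 0.646%, 0.615%, 0.484% and 2.91% on the same days. Since the list of named probes was selected on these arrays, nothing is read from the 5 against these shares. In tumor tissue, fewer cells of a kind that express a gene and less RNA per cell cannot be told apart.

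SERPINA1, the elastase inhibitor, had log2 ratios of -0.84, -0.57, -0.41 and -0.93 in the day 1 tumors (replicates 1 to 4), and of -1.26 and -1.10 in the day 2 tumors. The day 4 tumors gave -0.94, -1.87, -0.53 and -1.36 (replicates 1, 2, 3 and 5). All of these were below the pool, and the day 2 values lay below every day 1 value but within the day 4 range. In the day 7 tumors the values were -0.67, -2.64, -0.88 and -1.16, and in the day 14 tumors -1.52 and -1.80. Replicate 2 of day 7 was the lowest of all 16, below both day 14 tumors. The mean was -0.69 ± 0.24 at day 1 (SD, n = 4) and -1.66 ± 0.20 at day 14 (n = 2); the day 14 level was 3.15-fold lower than the pool. The probe was called at day 4 (mean -1.17, limma adjusted p = 0.0262), day 7 (-1.34, adjusted p = 0.0159) and day 14 (adjusted p = 0.00599), but not at day 1 (adjusted p = 0.0936) or day 2 (-1.18, adjusted p = 0.111).

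SERPINA4, the kallikrein inhibitor, had log2 ratios of -0.81, -0.46, -0.39 and -0.41 in the day 1 tumors, and -1.41 and -0.66 in the day 2 tumors. In the day 4 tumors they were -0.40, -1.13, -0.12 and -1.01. Replicate 3 of day 4, whose value rests on 1 array, was closest to the pool. The day 7 tumors gave -0.34, -1.44, -0.89 and -0.14, and the day 14 tumors -1.25 and -1.54. The values of replicates 3 and 4 of day 7 also rest on 1 array each. That of replicate 4 is the forward array, for which the deposited value table has 1.27. The groups of days 1 to 7 overlapped, and the day 14 values overlapped those of days 2 and 7. SERPINA4 was called at day 14 alone, with a mean of -1.40 ± 0.21 (SD, n = 2) or 2.63-fold below the pool (limma adjusted p = 0.00415). At the other days its mean was between -1.04 and -0.52, with adjusted p between 0.0847 and 0.113.

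SERPINA6, the corticosteroid carrier, was measured by a pair of clones whose values are given in turn. Probe 1 had -1.38, -1.61, -1.37 and -1.70 in the day 1 tumors, and probe 2 had -1.26, -1.66, -1.60 and -1.59. In the day 2 tumors probe 1 had -1.47 and -1.94, and probe 2 -1.42 and -1.86. At these early times SERPINA6 averaged 2.86-fold to 3.27-fold below the pool, while the SERPINA1 and SERPINA4 values of the same day 1 tumors all lay closer to 0. In the day 4 tumors probe 1 had -1.59, -2.22, -0.81 and -1.92, and probe 2 -1.68, -2.81, -0.81 and -1.94. In the day 7 tumors probe 1 had -0.70, -3.18, -1.30 and -1.55, and probe 2 -0.79, -3.26, -1.29 and -1.52. The pair of clones thus placed the tumors of days 4 and 7 in the same order, with replicate 2 lowest on both days. In the day 14 tumors probe 1 had -2.19 and -2.93, and probe 2 -2.35 and -3.00.

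The SERPINA6 mean at day 14 was -2.56 ± 0.53 for probe 1 (SD, n = 2, limma adjusted p = 0.00072) and -2.67 ± 0.46 for probe 2 (adjusted p = 0.00101), a level 5.91-fold and 6.38-fold below the pool. Probe 1 was called at every day and probe 2 at every day but day 2 (adjusted p = 0.085). The day 2 call of probe 1 was narrow (mean -1.71, adjusted p = 0.0481). The SD over tumors of probe 1 was 0.16 at day 1 and 1.06 at day 7 (n = 4 each), and that of probe 2 was 0.18 and 1.08.

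ALB, the main plasma carrier protein, had the widest spread. The day 1 tumors gave -3.42 and -3.98 (replicates 1 and 2, from 1 mouse) and -1.58 and -0.31 (replicates 3 and 4, from the other mouse). The day 2 tumors gave -2.77 and -2.24. At day 1 both tumors of 1 mouse were thus lower than both tumors of the other. SERPINA4 divided these tumors the same way but over a range of 0.41, and the SERPINA1 and SERPINA6 probes did not. The day 4 tumors gave -0.70, -2.10, -3.17 and -2.83, and the day 7 tumors -3.24, -5.12, -1.39 and -1.67. The day 14 tumors had -4.62 and -5.38. Both day 14 values were below every other tumor except replicate 2 of day 7. ALB averaged -5.00 ± 0.54 at day 14 (SD, n = 2), a level 31.9-fold lower than the pool (limma adjusted p = 0.000972). It was also called at day 1 (-2.32 ± 1.69, n = 4, adjusted p = 0.0215) and day 7 (-2.87, adjusted p = 0.0299), but not at day 2 (-2.51, adjusted p = 0.15) or day 4 (-2.21, adjusted p = 0.0658).

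**Figure D2:**
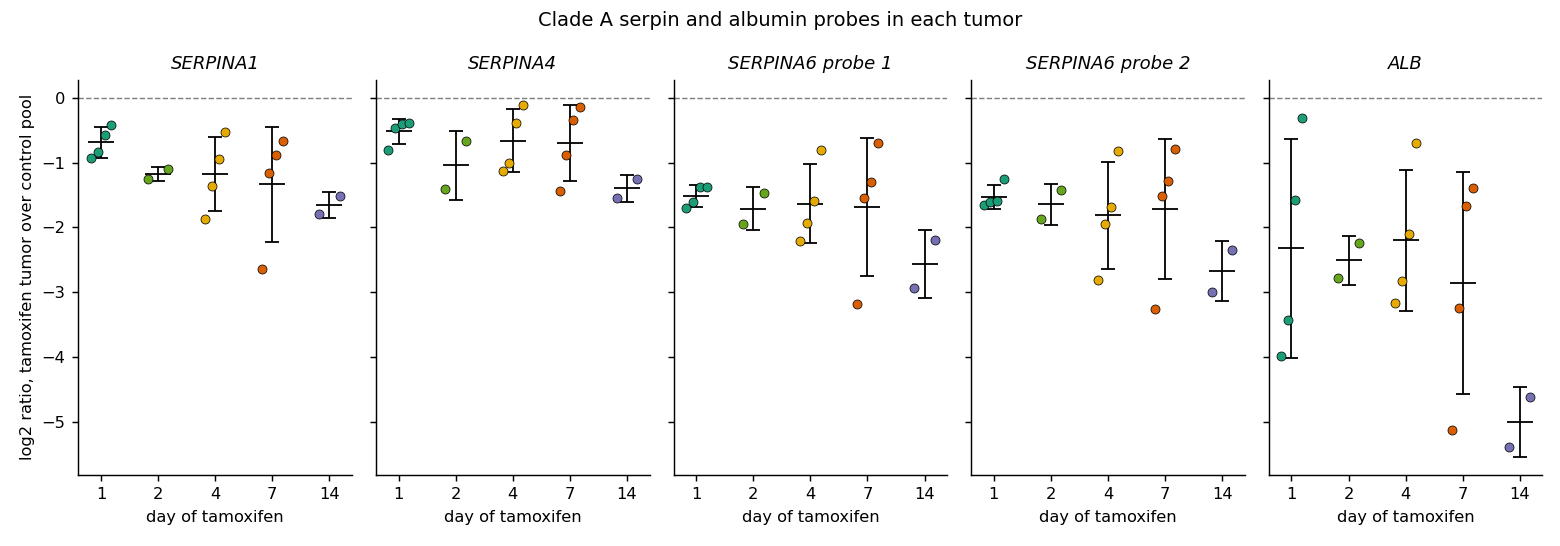
Log2 ratio of tamoxifen tumor over control pool for each probe. The x axis gives the day of tamoxifen, each point is 1 tumor, the horizontal bar and whiskers are the mean and SD over the tumors of a day, and the dashed line at 0 is the control pool. No tumor reaches 0, replicate 2 of day 7 stands lowest of its day in every panel, and the day 14 ALB values are -4.62 and -5.38.

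Several calls were lost when 1 tumor was left out. Leaving out a tumor also lowers n, so a lost call does not by itself show that it rested on that tumor. Without replicate 2 of day 4 none of the day 4 calls remained, with adjusted p of 0.16 for SERPINA1 and 0.0747 for each SERPINA6 probe, and without replicate 5 of day 4 the SERPINA1 call was lost (0.0693). At day 7, leaving out replicate 2 ended the calls of SERPINA1 (-0.90, adjusted p = 0.0878), SERPINA6 probe 2 (-1.20, 0.0909) and ALB (-2.11, 0.242), leaving out replicate 4 ended the same 3 calls (0.0635, 0.0635 and 0.0551), and leaving out replicate 1 ended that of ALB (0.0972). At day 1, the ALB call was lost without replicate 1 (0.131), 2 (0.148) or 3 (0.0562), and that of SERPINA6 probe 2 without replicate 2 (0.0572). At day 14, leaving out replicate 2 leaves 1 tumor, assumed to vary as the other days do, and 0 of 5 calls, while leaving out replicate 1 leaves 3, those of SERPINA1 (0.0806) and SERPINA4 (0.0553) being lost. The day 2 call of SERPINA6 probe 1 was lost in 12 of the 16 fits that leave out a tumor. With 1 mean per mouse (12 mice), 0 calls were made at days 1, 2 and 4, 1 at day 7 and 5 at day 14.

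Differences between days were smaller than the spread allows to call. None of the 5 probes passed the F-test over the 5 days (adjusted p from 0.553 for ALB to 0.703 for SERPINA6 probe 2) or any of 5 contrasts of days, where 0.0807% of all probes passed the F-test, 0.293% the contrast of day 14 with day 1 (0.121% as lower), 0.0807% that of day 14 with day 7 and 0% each of the other 3. At an unadjusted p under 0.05, all 5 probes were lower at day 14 than at day 1, as were 539 of all 9912 probes, and nothing is read from this since the 5 come from a cluster made on these time courses. The difference of day 14 minus day 1 was -0.97 for SERPINA1 (95% interval -1.83 to -0.10, adjusted p = 0.401), -0.88 for SERPINA4 (-1.57 to -0.19, 0.312) and -2.67 for ALB (-4.71 to -0.64, 0.291). For SERPINA6 it was -1.05 with probe 1 (-2.05 to -0.04, 0.44) and -1.15 with probe 2 (-2.24 to -0.05, 0.438). Each interval lies below 0 before adjustment. From day 4 to day 7 the intervals all spanned 0, as for SERPINA1 (-0.17, interval -0.87 to 0.54).

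The 2 channels show where the variation lay. The control pool is the same RNA on every array. On the normalized log2 intensity scale, SERPINA6 probe 1 had an SD over the 16 tumors of 0.87 in the tumor channel and 0.39 in the pool channel, and probe 2 had 0.77 and 0.24. For ALB the SD was 1.49 in the tumor channel and 0.31 in the pool channel. SERPINA1 had 0.67 in the tumor channel and 0.37 in the pool channel, and SERPINA4 had 0.40 and 0.28. The tumor channel was the wider in each case, by least in SERPINA4. Tumor and pool levels did not overlap for SERPINA6 probe 2, at 8.18 to 10.99 in tumors and 11.12 to 11.98 in the pool. They did for ALB, at 8.23 to 13.40 in tumors and 12.92 to 13.86 in the pool.

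**Figure D3:**
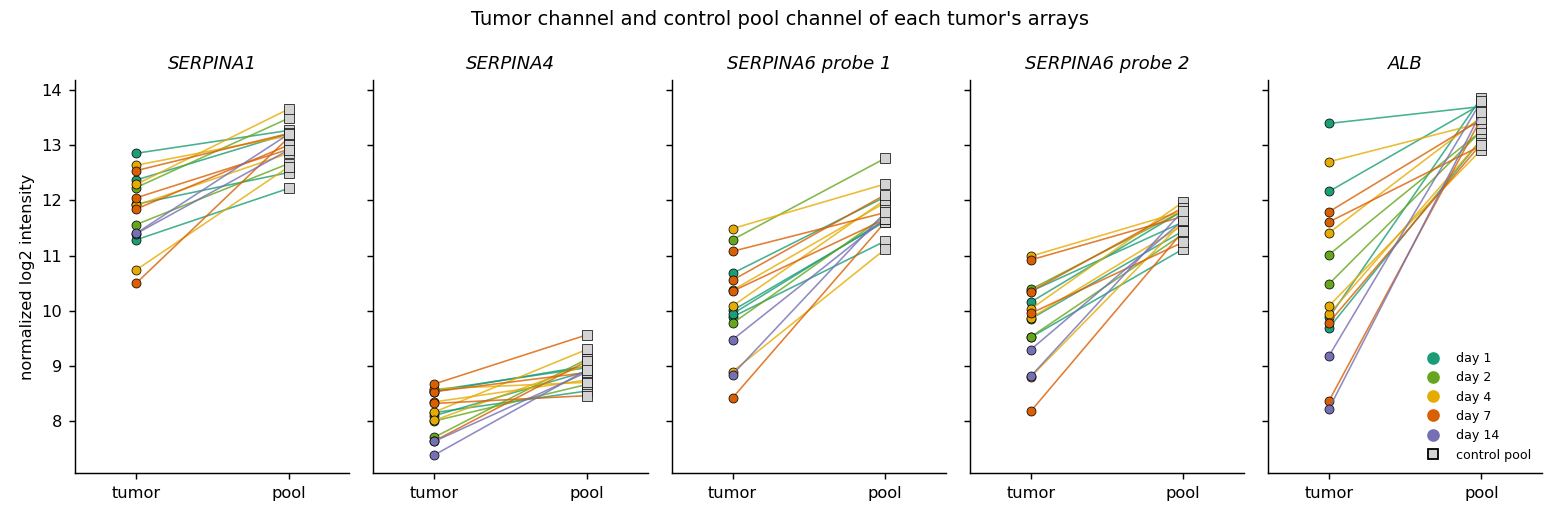
Normalized log2 intensity of the tumor channel (left, colored by day) and of the control pool channel (right, grey squares) for each probe, with a line joining the channels of the same tumor's arrays. The 16 pool values of SERPINA6 probe 2 stay between 11.12 and 11.98, and the tumor values spread from 8.18 to 10.99.

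The dye orientations of a tumor gave correlated ratios, with gaps that mattered most for SERPINA1 at day 1. The correlation of forward with dye-swap ratios over tumors was 0.77 for SERPINA1 (15 tumors), 0.83 for SERPINA4 (13), 0.94 for SERPINA6 probe 1 (14), 0.94 for SERPINA6 probe 2 (15) and 0.98 for ALB (15). The mean difference between orientations was at most 0.49 in size, that of ALB, where the dye-swap value was the higher. The mean absolute difference was 0.415 for SERPINA1, beside an SD over tumors of 0.58. At day 1, SERPINA1 had -0.41 on the forward and -1.27 on the dye-swap array of replicate 1, and -0.76 and -0.06 in replicate 3. Each gap is wider than the range of its day 1 tumor values (0.52), so their order is uncertain. Pooled over days, the mean difference was smaller between tumors of 1 mouse than between tumors of different mice at the same day. The mean absolute difference over 4 such pairs and 16 other pairs was 0.36 and 0.83 for SERPINA6 probe 1, 0.44 and 0.90 for probe 2, and 0.88 and 1.97 for ALB. It was 0.50 and 0.68 for SERPINA1, and 0.46 and 0.54 for SERPINA4. These are descriptions of 4 pairs, with no test, and the pooling mixes days. Of the 4 pairs, 2 are from day 1, where the SD of SERPINA6 probe 1 was 0.16, against 1.06 at day 7. Within day 1 this probe had -1.38 and -1.61 in 1 mouse and -1.37 and -1.70 in the other, so tumors of 1 mouse were not closer there.

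The main question for these genes was whether they vary together across tumors. The 3 serpins did over all 16, and the r of ALB with them was lower. Over the 16 tumors, Pearson's r between SERPINA1 and SERPINA6 was 0.88 with probe 1 (Spearman's rho 0.83) and 0.88 with probe 2 (rho 0.76), each with a 2-sided permutation p of 1e-05, the smallest that 100000 resamples can give, and an adjusted p of 3.33e-05 over the 10 pairs of probes. The r between SERPINA1 and SERPINA4 was 0.77 (rho 0.77, permutation p = 0.00023, adjusted p = 0.000575). SERPINA4 and SERPINA6 had r of 0.74 with probe 1 (rho 0.69, permutation p = 0.00079, adjusted p = 0.00158) and 0.72 with probe 2 (rho 0.65, permutation p = 0.00142, adjusted p = 0.00237). The pair of SERPINA6 clones, which measure 1 gene, had r of 0.97 (rho 0.94, permutation p = 1e-05). By Spearman's rho all 6 of these pairs also passed after adjustment (adjusted permutation p of at most 0.0123). The resamples shuffled tumors across days and took no account of shared mice. The part of r between days, on which the probes were grouped, therefore enters the permutation p-values here and below, which are not independent evidence for that part.

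ALB reached r of 0.57 with SERPINA4 (rho 0.47, permutation p = 0.0221, adjusted p = 0.0316), the only ALB pair below 0.05. With SERPINA1 it had r of 0.48 (rho 0.29, permutation p = 0.0605, adjusted p = 0.0672), with SERPINA6 probe 1 0.49 (rho 0.34, permutation p = 0.0519, adjusted p = 0.0649) and with probe 2 0.46 (rho 0.29, permutation p = 0.073, adjusted p = 0.073). By rho no ALB pair passed (adjusted permutation p from 0.0984 to 0.286). Whether the ALB correlations differ from those among the serpins was not tested. With mice as units, by 1 mean for each of 12 mice, the serpin pairs had r from 0.79 to 0.92 and the ALB pairs 0.53 to 0.62, where 1 ALB pair, again that with SERPINA4, passed (permutation test, adjusted p = 0.0486).

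**Figure D4:**
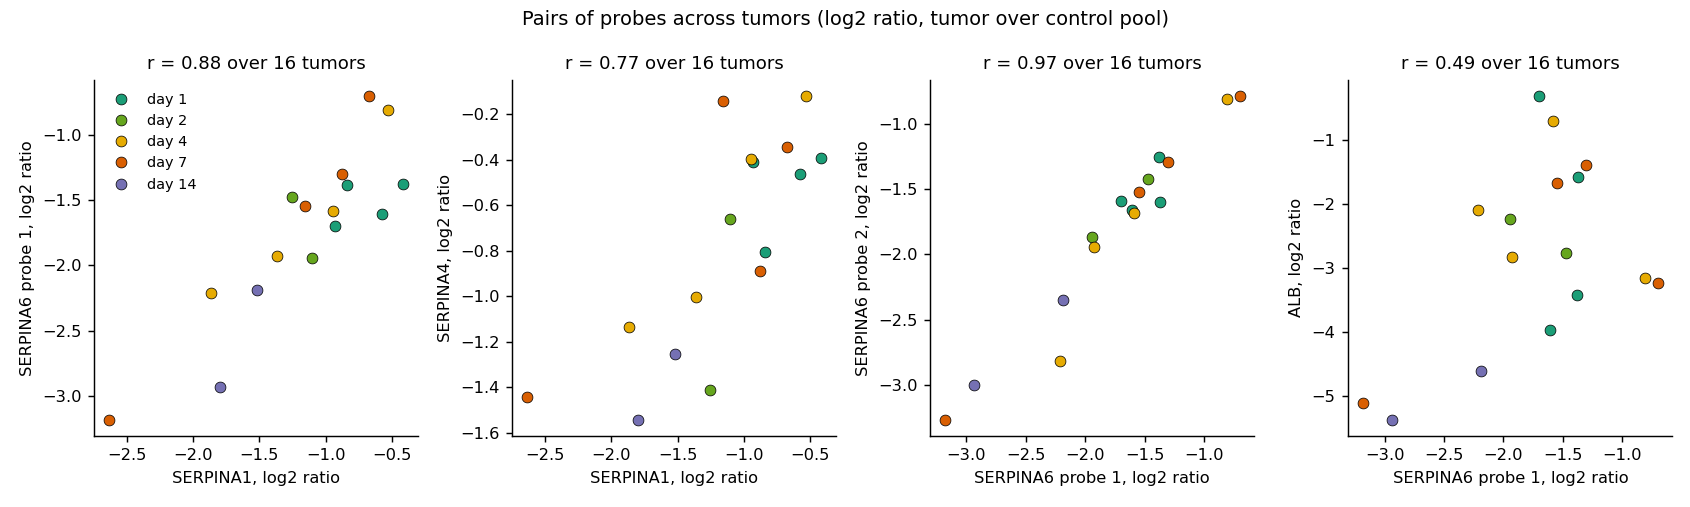
Log2 ratios (tumor over control pool) of 4 pairs of probes, each point 1 of 16 tumors, colored by day. SERPINA1 with SERPINA6 probe 1 and the pair of SERPINA6 probes lie along a line (r = 0.88 and 0.97), SERPINA1 with SERPINA4 is looser (r = 0.77), and for ALB with SERPINA6 probe 1 (r = 0.49) the low tumors are replicate 2 of day 7 and both tumors of day 14.

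The low end of each relation was held by few tumors. Replicate 2 of day 7 ranked lowest for SERPINA1 and both SERPINA6 probes, and 2nd lowest for SERPINA4 and ALB, while replicate 2 of day 14 was lowest for SERPINA4 and ALB and 2nd or 3rd lowest for the other probes. Leaving out the 2 tumors farthest from the median of the first gene of a pair kept SERPINA1 with SERPINA6 probe 1 at r = 0.82, with probe 2 at 0.78 and with SERPINA4 at 0.77 (14 tumors, permutation test, adjusted p of at most 0.00357). SERPINA4 with SERPINA6 went to 0.56 with probe 1 and 0.54 with probe 2 (permutation p = 0.0366 and 0.0449, adjusted p = 0.0733 and 0.0748). For ALB, r was -0.01 with SERPINA6 probe 1 and 0.00 with probe 2, so these relations, which had not passed before, rest on the 2 tumors left out. The r of ALB with SERPINA4 was 0.31 and no longer passed, and that with SERPINA1 was 0.40 (adjusted permutation p of at least 0.219 for all 4). Leaving out the outermost tumors narrows the range of the first gene, which can lower r by itself.

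Removing named tumors gave the same picture. Without both day 14 tumors the serpin pairs ran from r = 0.63 to 0.88, all past 0.05, and the ALB pairs from 0.25 to 0.39, none past it (14 tumors, permutation test). Without these and replicate 2 of day 7, SERPINA1 still had r of 0.73 and 0.75 with the SERPINA6 probes (13 tumors, permutation test, adjusted p = 0.0164 each) and 0.65 with SERPINA4 (adjusted p = 0.0402). SERPINA4 with SERPINA6 then had 0.47 and 0.46 (adjusted p = 0.196 each), and the ALB pairs ran from -0.28 to 0.14. The SERPINA4 and ALB pair lost its adjusted p under 0.05 without replicate 1 of day 4 (0.0527), replicate 2 of day 7 (0.0898), replicate 4 of day 7 (0.051), replicate 1 of day 14 (0.0591) or replicate 2 of day 14 (0.114). With the dye-swap array alone for replicate 4 of day 7, SERPINA4 has no value in that tumor, as its spot there has mark 0. The pair (0.0502) then rests on the same tumors as without that replicate, so this is not a separate alternative. Conversely all 4 ALB pairs passed without replicate 2 or replicate 3 of day 4, with r of 0.53 to 0.61 and 0.52 to 0.65. They also passed with the authors' value table (r of 0.57 to 0.79) and with the left-out array used as labelled (0.60 to 0.69), and 3 passed with dye-swap arrays only.

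Because the 5 probes were grouped by their course over days, the correlation within days was also taken. With the mean of each day removed, SERPINA1 had r of 0.93 and 0.92 with the SERPINA6 probes and 0.78 with SERPINA4, and SERPINA4 had 0.67 and 0.68 with the SERPINA6 probes (16 tumors, a description with no test). The ALB pairs had 0.27 to 0.41. Within day 4 the 4 serpin probes ranked the tumors in 1 order, lowest to highest replicates 2, 5, 1 and 3, and ALB ranked them 3, 5, 2 and 1. Within day 7, SERPINA1 and both SERPINA6 probes ran 2, 4, 3 and 1, SERPINA4 ran 2, 3, 1 and 4, and ALB ran 2, 1, 4 and 3. At day 1 the orders differed, with a rho of 0.8 between SERPINA1 and SERPINA6 probe 1 and -0.6 between SERPINA1 and probe 2. Across the 5 day means alone the serpin pairs had r from 0.81 to 0.91 and the ALB pairs from 0.78 to 0.98. Neither carries a test.

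Probes on 1 array share its hybridization, so 1 gene was also taken from the forward array and the other from the dye-swap array of the same tumors. SERPINA1 on forward arrays with SERPINA6 on swap arrays had r of 0.90 (probe 1, 14 tumors) and 0.88 (probe 2, 15 tumors), and the reverse assignment 0.77 for both probes. The lower of both assignments was 0.66 for SERPINA1 with SERPINA4 and 0.68 and 0.58 for SERPINA4 with the SERPINA6 probes. The ALB pairs had 0.46 to 0.67. In the tumor channel alone, r was 0.81 and 0.80 between SERPINA1 and the SERPINA6 probes, 0.40 between SERPINA1 and SERPINA4 (permutation test, adjusted p = 0.183) and 0.14 to 0.59 for the ALB pairs. In the pool channel, where the RNA does not vary, the serpin pairs ran from -0.15 to 0.49, the highest being SERPINA1 with SERPINA6 probe 1, and the ALB pairs from -0.52 to -0.17.

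Against the rest of the array, the likeness of SERPINA1 and SERPINA6 was high. Among the 9864 other probes with a value in every tumor, SERPINA6 probe 1 ranked 2nd and probe 2 ranked 3rd in r with SERPINA1, and 47 probes (0.476%) had an r above 0.7. For SERPINA6 the order was the same from the other side, with SERPINA1 3rd for probe 1 and 2nd for probe 2, behind the other clone of SERPINA6 in each case. SERPINA4 ranked 17th for SERPINA1, and SERPINA1 ranked 10th for SERPINA4. ALB ranked 408th for SERPINA1, 221st for SERPINA4, and 410th and 503rd for the SERPINA6 probes. Each rank depends on the same 16 tumors and carries no test. The ranked genes were selected as changed and grouped by their course over days on these same arrays, unlike most probes they are ranked against. The part of r between days enters each rank, so a high rank is in part set by that selection. Ranks with the day means removed were not taken.

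**Figure D5:**
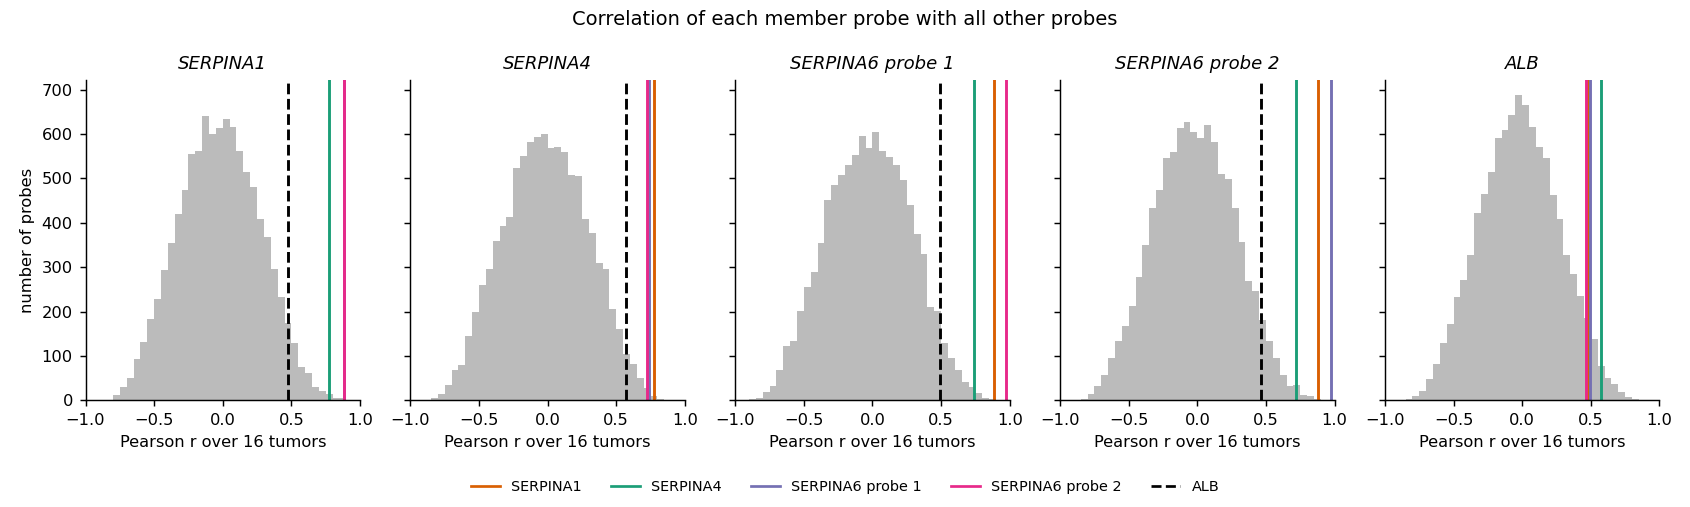
Number of probes by Pearson's r over 16 tumors with each of the 5 probes. Grey bars count the 9864 other probes, and vertical lines mark the r of the other 4, with ALB dashed and lines at the same r on top of each other. The serpin lines lie at 0.72 or above in the serpin panels, and the ALB lines lie between 0.46 and 0.57.

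The probes of other named genes that were most like each gene overlapped in part. PLP2 was among the 12 named probes most like each of the 5 probes (r from 0.72 to 0.80). For SERPINA1 they were CLN8 (r = 0.94), SERPINA6, WFDC2 (0.78), a secreted protease-inhibitor-like protein, SERPINA4 and MAT1A (0.77), which makes S-adenosylmethionine in the liver. For SERPINA6 probe 1 they were MAT1A (0.89), SERPINA1, CLN8 (0.86), IGFBP4 (0.85 and 0.84 with its clones), an estrogen-induced binding protein of insulin-like growth factors, and CD59 (0.81), a complement inhibitor. For SERPINA4 they were FN1 (0.88, but 0.57 with its other clone), which encodes fibronectin, IL24 (0.79), PLP2 (0.78), SERPINA1 and SERPINA6. ALB was most like PLP2 (0.78), MGLL (0.77), a lipase of monoglycerides, FN1 (0.76), LGALS1 (0.73), which encodes galectin-1, and MLL3 (0.66). This FN1 value is that of the other clone, and the FN1 clone most like SERPINA4 had 0.53 with ALB. CLN8 was also lower than the pool, with -0.62 ± 0.29 at day 1 (SD, n = 4, adjusted p = 0.115) and -1.92 ± 0.14 at day 14 (n = 2, limma adjusted p = 0.00158).

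At the other end stood genes with negative correlations. The lowest r with SERPINA1 was that of IGFBP5 (-0.78) and ATBF1 (-0.77). With SERPINA6 probe 1 it was that of ABCC5 (-0.87), a drug efflux transporter, and ATBF1 (-0.82), and with SERPINA4 that of PSMD1 (-0.83), a proteasome subunit, and FGF18 (-0.78). With ALB it was that of GRB7 (-0.88), an adaptor of receptor tyrosine kinases, and TXNIP (-0.80), a binder of thioredoxin. All named probes were selected as changed on these arrays.

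No other serpin could be set beside the 3, since of 31 family members listed these were the ones with a named probe. Of a list of 46 liver-type secreted proteins and enzymes, 9 genes had one, the 4 described here and 5 others. At day 14, 2 of the 5 others were lower, MAT1A (-1.17 ± 0.15, SD, n = 2, limma adjusted p = 0.0198) and CYB5 (-0.59 ± 0.10, adjusted p = 0.00358), which encodes cytochrome b5. Another 2 were higher, the epoxygenase CYP2J2 (1.15 ± 0.15, adjusted p = 0.00417) and PRODH (1.12 ± 0.03, adjusted p = 0.0125), which breaks down proline, and TM4SF4 (0.19, adjusted p = 0.831) did not pass. In either direction, 6.54%, 0.787%, 0.928%, 0.706% and 6.19% of all probes were called at days 1, 2, 4, 7 and 14. At days 1 to 7 none of the 5 others passed. Their median was 0.19 at day 14, against -1.17 for the 9 together and 0.00 for all probes.

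A list of estrogen-induced genes of breast cancer cells is given for its values alone, since a gene has a named probe here because it was selected as changed on these arrays. Of 30 listed, 19 had a named probe, and the number of these called lower was 9, 3, 8, 8 and 17 at days 1, 2, 4, 7 and 14, with 0 higher at any day, where 2.91% of all probes were lower at day 14. Their median was -0.46 at day 1 and -1.10 at day 14. Among them at day 14 were TFF3 (-1.94 ± 0.04, adjusted p = 4.59e-05), a secreted trefoil peptide, GFRA1 (-2.52 ± 0.27, adjusted p = 7.06e-05), a receptor of neurotrophic factors, EGR3 (-1.81 ± 0.24), a transcription factor, and OLFM1 (-1.33 ± 0.38, SD, n = 2 each, limma). SERPINA6 at day 14 (-2.56) lay near GFRA1, and ALB (-5.00) lay below all 4.

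Markers of other cells were few, and those with a named probe were selected as changed on these arrays. Of all probes, 2.91% were called lower at day 14. Of 15 genes of fibroblasts and matrix, 4 had a named probe (MGP, LGALS1, FN1 and IGFBP7). At day 14, 3 of them were lower, with log2 ratios of -1.15 for MGP, -0.67 for LGALS1 and -0.61 for FN1. IGFBP7 had 0.73 (limma adjusted p = 0.162), and the other clone of FN1 did not pass (-0.67, adjusted p = 0.0579). The mean of the 4 genes in a tumor was between -0.71 and -0.14 at day 14 and between -0.49 and 0.03 at day 1. The defining collagens have no named probe here. Of 15 genes of red cells, 3 had one, and 1 of them, STOM, was lower at day 14 (-0.76), while HBG1 had -1.11 (adjusted p = 0.107). The mean of these 3 was between -1.22 and -0.65 at day 14 and between -0.39 and 0.48 at day 7, where ALB was at -1.39 or below. Lists of endothelium, macrophages, adipocytes and keratinocytes had no named probe. The part of other cells in the ratios of the 4 genes was not tested. Stroma and vessels come from the mouse, while these probes carry human gene symbols. How far the probes read mouse RNA was not tested, so their values are not a measure of host cell content. The defining keratins and the estrogen receptor gene of the ZR-75-1 cells have no named probe either.

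The spots of the 4 genes were measurable on all arrays used. The lowest tumor signal was 2.03 times the local background for SERPINA4, 2.93 times for ALB and 8.00 times for SERPINA1, and the brightest spot of any of them, at 37453, was below the scanner's limit. SERPINA4 was left out on 2 arrays and SERPINA6 probe 1 on 1 array for the spot mark 0. The median signal over background of the 32 arrays was between 2.77 and 7.92. The dye-swap array of replicate 3 of day 4 was left out because its raw ratios followed the forward array of replicate 2 of day 4 (r = 0.978). That tumor of replicate 3 thus has 1 orientation. The left-out array was assigned to replicate 3 by its source name, while its title gives replicate 4 of day 4.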

How the data were processed

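The authors deposited, for each of 32 2-color cDNA arrays, spot intensity values (foreground and local background of both channels) with a spot mark whose meaning is not given in the sources used here, and a value table of log2 ratios. The hybridizations were made as dye-swap pairs, and the submitters' processing notes name limma. Here the intensities were background-corrected (normexp, offset 50), loess-normalized within and quantile-normalized between arrays in limma 3.58.1 (R 4.3.3, statmod 1.5.0). Spots with mark 0 (1 to 393 per array) were left out, and so was 1 array, for the reason given in the results. Ratios were turned to tumor over pool and averaged by tumor. A mean per day was fitted by lmFit with mouse as a random block (correlation 0.0224), tested by eBayes and adjusted by Benjamini-Hochberg over 9912 probes (adjusted p under 0.05). The fit was tested on simulated data. Pairs of probes were compared by 2-sided permutation tests (100000 resamples, scipy 1.17.1). The number of arrays and the signal over background limit the precision.

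Genes named besides the 4 were the top 5 and lowest 2 named probes by r, list genes by adjusted p at day 14, and, after values were seen, the course of CLN8. Lists covered serpins, liver-type proteins, estrogen-induced genes, luminal, fibroblast, erythroid, endothelial, leukocyte, adipocyte, muscle and keratinocyte markers and proliferation. The members and lists were chosen with earlier results of these data known. Symbols came from the study's list of changed probes (253 symbols), of which no other value was used. The deposited log2 value table served as an alternative. Alternatives varied the background correction, normalization, marks, block, dyes and tumors entered. Those added after seeing the data were the crossed orientations, the tumor channel alone, the dye-swap array alone for replicate 4 of day 7, and leaving out both day 14 tumors without or with replicate 2 of day 7.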

Additional observations from a re-analysis of the deposited data

Results flagged for a closer look

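SERPINA6 probe 2 stood apart in 1 tumor of day 1. Replicate 1 had a log2 ratio of -1.26, the highest of the 4, and its gap to the nearest of the others was 0.838 of the whole range, past the critical value of Dixon's test for 4 values. Of 15 groups of probe and day tested this was the only one, and chance gives about 5% of groups. SERPINA6 probe 1 had -1.38 in the same tumor, inside the range of its other day 1 values.

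The dye-swap array of replicate 3 of day 4, left out of the main comparisons, gave ratios above the pool once turned as a dye swap. Its title gives replicate 4 of day 4, while its source name is that of the replicate 3 tumor. As labelled means here a dye swap of the tumor in its source name. Before turning, its raw ratios followed the forward array of replicate 2 of day 4 (r = 0.978). Taken as labelled, its log2 ratios of tumor over pool were 1.995 for SERPINA1, 1.668 for SERPINA4, 2.156 and 2.773 for the SERPINA6 probes, and 2.258 for ALB, each above 0. The forward array of the same tumor had -0.53, -0.12, -0.81, -0.81 and -3.17, and the forward array of replicate 2 of day 4 had -1.93, -1.13, -2.21, -3.02 and -2.23. In the deposited value table the column of the left-out array has -0.82, -0.23, -1.22, -1.34 and -2.22, all below 0, and over all shared probes it correlates with the scanned array at r = 0.365. The table's column and the scanned values of this array thus differ in sign for all 5 probes. The scan follows the array of another tumor, and whether the table's column belongs to this tumor was not settled.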

How the results depend on the processing

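Every alternative kept the mean of all 5 probes below the pool at every day, and none reversed a direction. The number of the 5 called lower at day 1 (3) was 0 with 1 mean per mouse and 5 with a dye term on array values or with the tumors of that day alone, and 1 to 4 when 1 tumor was left out. At day 2 (1) it was 2 with no background correction, with plain subtraction or with forward arrays only, 5 with the dye term and 0 with no normalization between arrays, Aquantile, marks not used, 1 mean per mouse, dye-swap arrays only, the dye-swap array alone for replicate 4 of day 7, the left-out array used as labelled, that day alone or the replicate block, and 0 to 4 without 1 tumor. At day 4 (3) it was 0 with 1 mean per mouse or the left-out array used, 1 with dye-swap arrays only and 5 with forward arrays only or the dye term, and 0 to 4 without 1 tumor. At day 7 (4) it was 5 with the dye term, 1 with 1 mean per mouse and 0 with the authors' value table, the left-out array used or that day alone, and 1 to 4 without 1 tumor. At day 14 (5) it was 5 under all of these settings, and 0 to 5 without 1 tumor. Between days (0), the dye term gave 2, and leaving out 1 tumor gave 0. Of the 10 pairs, 7 passed, with 4 left without both day 14 tumors and replicate 2 of day 7, 10 with the authors' value table or the left-out array used, 9 with dye-swap arrays only, 5 in the tumor channel alone and 6 to 10 without 1 tumor. The cause of these shifts was not tested. The fit with the replicate number as a block gave 3, 0, 3, 4 and 5 calls at days 1, 2, 4, 7 and 14, the lost one being SERPINA6 probe 1 at day 2, and it changed no other call. Tumors of the same number did not deviate together (24 pairs, mean r 0.0109, from -0.174 to 0.182), so that the numbers do not pair the tumors. A filter on dim probes removed 0 of 9912 probes and was not run further. With 2 tumors at days 2 and 14 and 1 control pool, neither the spread between control tumors nor small changes could be measured.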

Other observations

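Other named genes moved in the same tumors. Of 20 proliferation genes, all with a named probe, 12, 10, 1, 2 and 17 were lower than the pool at days 1, 2, 4, 7 and 14 (limma, adjusted p under 0.05), with 0 higher, where 3.54%, 0.646%, 0.615%, 0.484% and 2.91% of all probes were lower. These genes too have a named probe because they were selected as changed on these arrays, so the counts are a description. Their median was -0.37, -0.67, -0.18, -0.24 and -0.66 on these days, so that it was lowest at days 2 and 14. Of 15 luminal epithelial genes 6 had a named probe. At day 14, 5 of them were higher, CD24 (1.24 ± 0.24, SD, n = 2), MUC1 (1.02 ± 0.06), PRSS8 (0.84 ± 0.12), SPINT1 (0.72 ± 0.02) and ERBB3 (0.69 ± 0.01), and CLDN4 (0.49, limma adjusted p = 0.107) did not pass. MUC1, a membrane mucin, was lower at day 1 (-0.69 ± 0.32, n = 4, adjusted p = 0.0117), while 3 of the 6 were higher at that day. These were SPINT1 (0.58, limma adjusted p = 0.00063), PRSS8 (0.77, 0.000514) and CLDN4 (0.88, 0.00063). In either direction, 6.54% of all probes were called at day 1 and 6.19% at day 14. The luminal genes with a named probe were also selected as changed on these arrays. Of 8 skeletal muscle genes the myoglobin gene MB had a named probe and was higher at day 14 (0.72, adjusted p = 0.00207).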
